A study of Mus musculus with 39 samples.

Results

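A set of 9 genes of cystine uptake and glutathione defence, out of 22180 genes with a probe set of 1 symbol, was read in whole mouse testis: Slc7a11, Gclc, Gclm, Gss, Gpx3, Nqo1, Hmox1, Txnrd1 and Srxn1. They were listed by name, and Slc7a11 was selected on its log2 difference between prKO and WT testes at 2 weeks, so its values in every comparison that holds arrays of either group at 2 weeks are a description and carry no test. Each gene was read from 1 probe set. Of the 9 genes, 9 passed the filter on dim probe sets, which asked that the mean of at least 1 group exceed the 25th percentile of all values (4.62).

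Testes came from mice of 3 lines with floxed Prkar1a (fl/fl) and from wild-type (WT) littermates. The Cre transgene was Sf1:Cre in prKO (4 animals aged 2 weeks and 3 aged 2 months), Amh:Cre in srKO (4 at each age) and Cyp11a1:Cre in lrKO (4 at each age), and there were 8 WT animals at each age. The 39 arrays were Affymetrix GeneChips, and the deposited values were log2 intensities. Prkar1a encodes a regulatory subunit that keeps protein kinase A inactive until cAMP binds it. Sf1:Cre acts early, in the somatic precursors that the gonad shares with the adrenal cortex. Amh:Cre acts in Sertoli cells, and Cyp11a1:Cre in cells that make steroids, in the testis the Leydig cells. The label on RNA extraction names adrenal glands, whereas the other labels name whole testis.

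Slc7a11 is the transporter subunit of system xc-, which brings cystine into the cell in exchange for glutamate and is held at the membrane by Slc3a2. Cystine is reduced to cysteine, which the glutamate-cysteine ligase (catalytic subunit Gclc, modifier subunit Gclm) and then the synthetase Gss build into glutathione. Gpx3 is a secreted, selenium-containing peroxidase that uses glutathione. Nqo1 reduces quinones, Hmox1 breaks down heme, Txnrd1 reduces thioredoxin and Srxn1 repairs overoxidised peroxiredoxins. Most of these genes are known targets of the transcription factor NRF2, and Slc7a11 also of ATF4, the factor of the amino acid and stress response. Steroid-producing cells make reactive oxygen as a by-product of cytochrome P450 reactions and are known to hold much of this machinery.

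Promoters from RefSeq on GRCm38.p6, spanning 250 bases before to 50 after the start, were given for 7 of the 9 genes, and 4 windows are shown, those that hold letters of the motifs searched. Capitals mark the CHOP-ATF composite core TGATGNAA in Slc7a11 and the antioxidant response element core TGACNNNGC in Gclm, Srxn1 and the second of the Txnrd1 windows, on either strand. The windows are chr3:50443564-50443863 (minus strand) for Slc7a11, chr3:122245307-122245606 (plus strand) for Gclm, chr2:152105274-152105573 (plus strand) for Srxn1 and chr10:82858956-82859255 (plus strand) for Txnrd1.
Slc7a11: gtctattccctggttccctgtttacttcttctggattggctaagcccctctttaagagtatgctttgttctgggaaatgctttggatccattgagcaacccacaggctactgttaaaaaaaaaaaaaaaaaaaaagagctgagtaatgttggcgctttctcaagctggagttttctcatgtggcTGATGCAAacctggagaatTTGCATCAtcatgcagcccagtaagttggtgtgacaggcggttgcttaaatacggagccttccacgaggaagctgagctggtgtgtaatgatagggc
Gclm: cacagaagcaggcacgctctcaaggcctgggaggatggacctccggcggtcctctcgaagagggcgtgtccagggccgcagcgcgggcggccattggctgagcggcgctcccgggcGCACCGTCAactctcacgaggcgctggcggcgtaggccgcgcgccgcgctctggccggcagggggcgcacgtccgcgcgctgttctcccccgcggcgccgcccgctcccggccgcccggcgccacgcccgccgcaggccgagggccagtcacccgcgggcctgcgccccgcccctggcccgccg
Srxn1: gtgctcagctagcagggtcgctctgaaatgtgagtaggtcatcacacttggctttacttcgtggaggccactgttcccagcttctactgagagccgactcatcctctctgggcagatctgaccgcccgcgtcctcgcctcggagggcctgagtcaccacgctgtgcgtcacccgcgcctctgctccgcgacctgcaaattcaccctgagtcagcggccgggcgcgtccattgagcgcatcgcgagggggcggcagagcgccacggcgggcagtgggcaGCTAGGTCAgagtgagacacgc
Txnrd1: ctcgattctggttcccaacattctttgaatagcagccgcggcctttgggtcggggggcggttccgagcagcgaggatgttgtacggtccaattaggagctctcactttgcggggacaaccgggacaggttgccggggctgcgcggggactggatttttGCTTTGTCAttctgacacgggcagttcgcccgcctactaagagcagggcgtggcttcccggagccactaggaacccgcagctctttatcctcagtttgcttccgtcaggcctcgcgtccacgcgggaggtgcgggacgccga

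The Slc7a11 window holds the CHOP-ATF letters at 2 places, from -66 to -59 as TGATGCAA and from -47 to -40 as TTGCATCA, counted from the first transcribed base as 0. Of 32851 promoters, 1304 (3.97%) hold this core at least once and 23 (0.07%) hold it 2 or more times; Slc7a11 was the 1 gene of the list with it. The antioxidant core was found in 3 of 9 windows of the listed genes, those of Gclm (-134 to -126), Srxn1 (28 to 36) and the Txnrd1 window shown (-92 to -84), and in 12.4% of all promoters. The cAMP response element TGACGTCA (1.79% of promoters) and the binding site of NR5A1 AAGGTCA (4.72%) were in 0 of the 9 windows. Each motif was sought on both strands, and a match is a match of letters in this window.

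The deleted gene was checked first. Prkar1a was lower on average than in WT in prKO testes at both ages (log2 difference -0.78 ± 0.07 at 2 weeks and -0.30 ± 0.09 at 2 months) and in srKO testes at 2 weeks (-0.48 ± 0.07), by limma with adjusted p of 4.5e-07, 0.0078 and 0.0022. At 2 weeks all prKO values (8.33 or less) and srKO values (8.64 or less) lay below every WT value (8.84 or more). At 2 months only prKO replicate 3 (8.36) lay below the lowest WT value (8.61). Replicates 1 and 2 of prKO, at 8.66 and 8.63, lay inside the WT range at that age. The testes labelled srKO at 2 months had more of it (0.24 ± 0.08, adjusted p = 0.030), and those labelled lrKO differed by 0.05 at 2 weeks and 0.04 at 2 months, with adjusted p of 0.84 and 0.94, so directions in these groups rest on labels that this probe set did not bear out. Spermatid markers were near background at 2 weeks (mean log2 intensity of the list 5.87 to 6.14 over all groups) and high in WT testes at 2 months (11.14 to 11.36). Sertoli markers were also present, at 9.20 to 9.60 over all groups at 2 weeks. Epididymal markers (Adam7, Gpx5 or Rnase9 more than 1 log2 unit above its median over all arrays) were high on 7 arrays, of which prKO replicate 1 at 2 months had the most (Adam7 at 11.70 there, against 4.25 and 4.47 in the other 2 prKO testes). WT replicates 1 to 4 and 5 to 8 did not overlap in 3 of the 9 genes at 2 weeks (Gpx3, Hmox1, Txnrd1), where 11.2% of all genes did not, and in 1 at 2 months (Gclc), where 11.7% did not. In whole testis, fewer cells of a type and less RNA per cell cannot be told apart.

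At 2 weeks the prKO testis had far more Slc7a11 and Gpx3 than WT, and more Nqo1, Hmox1 and Srxn1, whereas the 3 genes that build glutathione differed little. Slc7a11 stood at 8.08, 7.63, 8.01 and 8.50 in the 4 prKO testes, against 4.79 to 5.56 (median 5.13) in the 8 WT testes. All 4 prKO values lay above every WT value by at least 2.07. The log2 difference was 2.87, a 7.32-fold higher level, given as a description because this contrast picked the gene. The WT values lay near the 4.62 of the filter and below the median of every array (5.81 or more), so this fold is approximate.

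Gpx3 stood at 9.02, 8.72, 8.56 and 9.61 in prKO testes at 2 weeks and at 6.25 to 8.14 (median 6.52) in WT testes. The WT value of 8.14 came from replicate 4, an array also high in epididymal markers (Gpx5 at 5.42). The next highest WT value was 7.09, and every prKO value lay above 8.14. Replicate 3 of prKO, with Gpx3 at 8.56, was likewise high in these markers (Adam7 at 7.08). The level was 4.64-fold higher in prKO (2.21 ± 0.26, limma adjusted p = 1.1e-05).

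Nqo1 stood at 6.36, 6.14, 6.13 and 6.48 in prKO testes, against 5.10 to 5.97 (median 5.52) in WT testes. Hmox1 stood at 7.82, 7.78, 7.68 and 7.67 in prKO testes, against 6.83 to 7.47 (median 7.15) in WT testes. Srxn1 stood at 6.91, 6.78, 6.78 and 6.77 in prKO testes, against 6.37 to 6.70 (median 6.48) in WT testes. In none of the 3 did prKO and WT overlap, as was so in 5.74% of all genes. By limma, Nqo1 was higher by 0.79 ± 0.15 (adjusted p = 0.0019), Hmox1 by 0.57 ± 0.11 (adjusted p = 0.0017) and Srxn1 by 0.30 ± 0.07 (adjusted p = 0.011). Against WT replicates 1 to 4 alone, Nqo1 (0.60, adjusted p = 0.054) and Srxn1 (0.22, adjusted p = 0.19) missed the threshold, and Srxn1 also did without prKO replicate 1 (0.26, adjusted p = 0.056).

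The genes of glutathione synthesis did not follow. Gclc stood at 9.10 to 9.24 in prKO testes and 9.10 to 9.25 in WT testes, and Gss at 6.88 to 7.24 in prKO testes and 6.67 to 7.25 in WT testes, so both overlapped throughout. Gclm stood at 9.36, 9.44, 9.50 and 9.42 in prKO testes, against 9.46 to 9.65 in WT testes, with 3 of 4 prKO values below every WT value (-0.13 ± 0.05, adjusted p = 0.11). Txnrd1 differed by 0.18 ± 0.09 (adjusted p = 0.22). It was measured at 8.63 to 8.85 in prKO, against 8.65 to 8.82 in WT replicates 1 to 4 and 8.35 to 8.45 in WT replicates 5 to 8, and against replicates 5 to 8 alone it passed the threshold (0.36, adjusted p = 0.0023). Of the 8 genes tested here, 4 were called higher and 0 lower at an adjusted p under 0.05, where 10.5% of all 19007 genes were called and 7.9% were called higher. Since Slc7a11 was selected on this contrast, nothing is read from that share. The median log2 difference of the 8 genes tested was 0.24, against -0.01 over all genes.

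**Figure D1:**
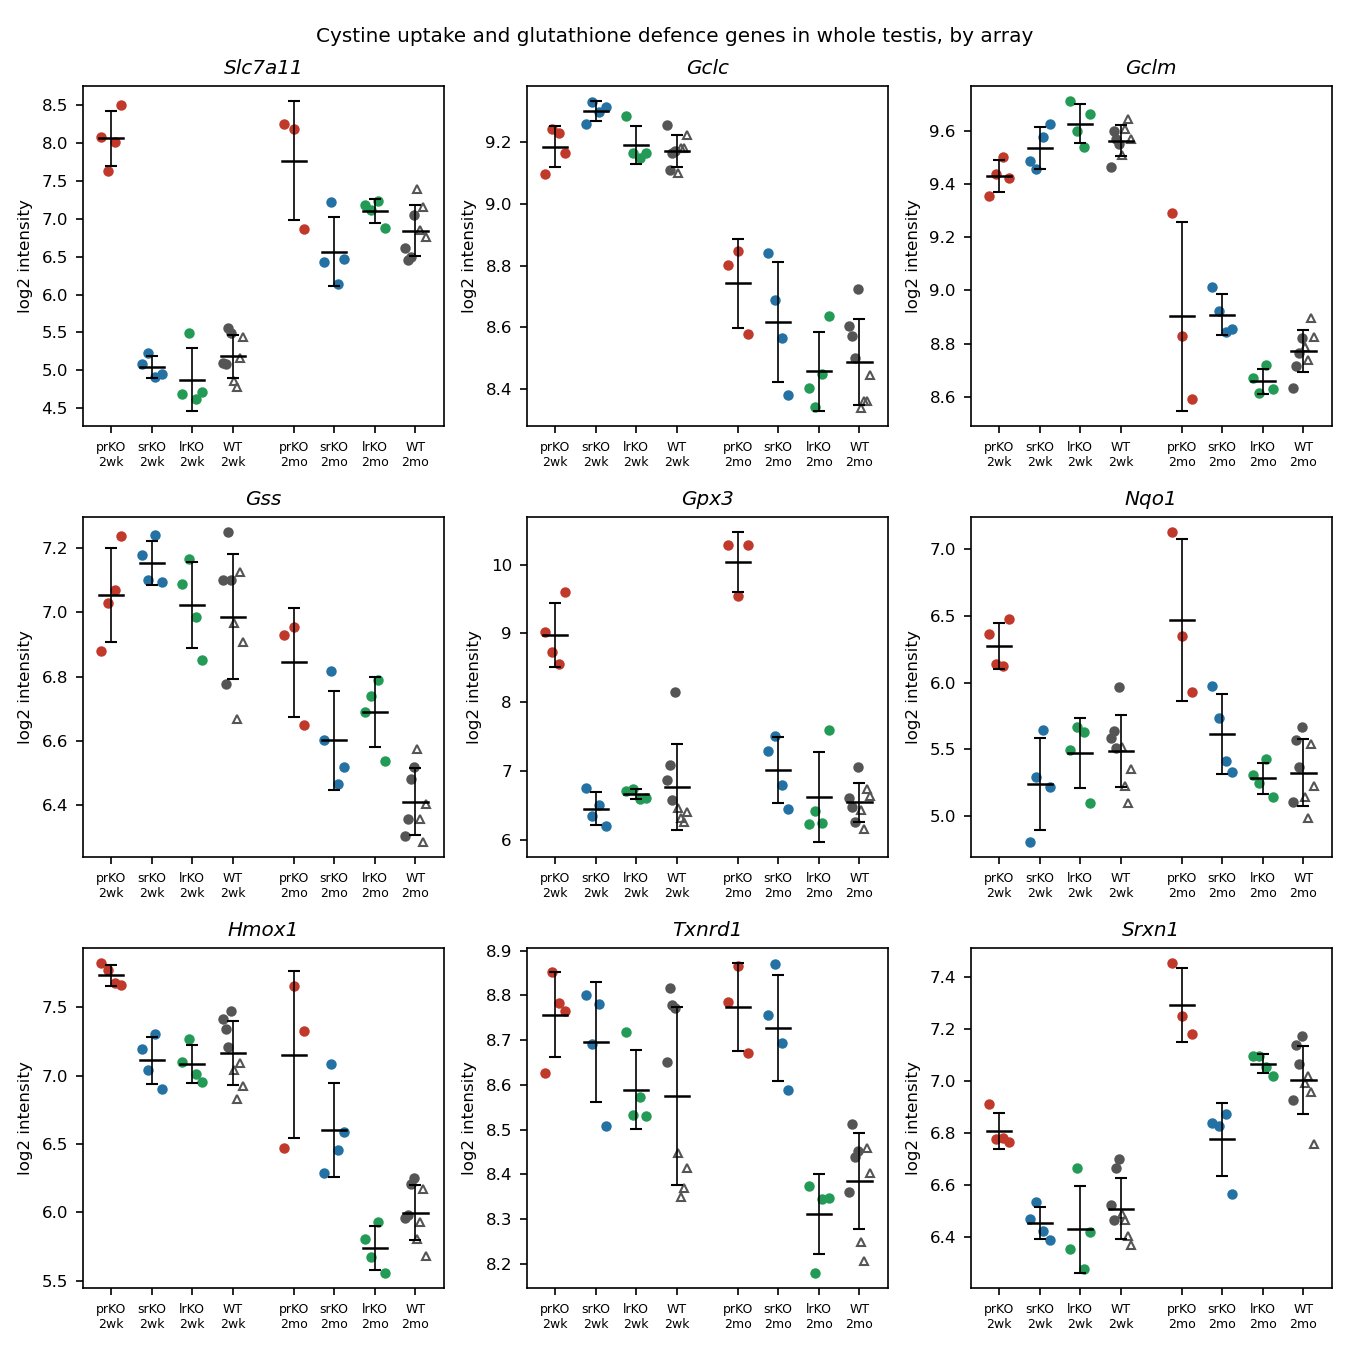
Log2 intensity (vertical axes) of the 9 genes on each of the 39 arrays, by line and age (horizontal axes). Points are animals, open triangles are WT replicates 5 to 8, and bars give the mean and SD of each group; the prKO testes stood above WT in Slc7a11 and Gpx3 at 2 weeks, while Gclc and Gss overlapped.

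In the other lines at 2 weeks, none of the 8 genes tested passed the limma threshold. Of these 8, 0 were called in srKO, where 0.873% of all genes were called, and 0 in testes labelled lrKO, where 0.1% were. Slc7a11 stood at 5.09, 5.23, 4.91 and 4.96 in srKO testes and at 4.69, 5.49, 4.62 and 4.72 in testes labelled lrKO, both in or below the WT range of 4.79 to 5.56. These Slc7a11 values too lay near the 4.62 of the filter. Gclc stood at 9.257 to 9.330 in srKO testes and 9.098 to 9.255 in WT testes, which all but touched (0.13 ± 0.05, adjusted p = 0.22). Gpx3 stood at 6.19 to 6.75 in srKO testes and 6.60 to 6.74 in testes labelled lrKO, both inside or just below the WT range. Nqo1 stood at 4.81 to 5.64 in srKO testes and 5.10 to 5.66 in testes labelled lrKO, and Hmox1 at 6.90 to 7.30 in srKO testes and 6.95 to 7.27 in testes labelled lrKO. Neither gene passed the highest WT value on any of these 8 arrays. These comparisons share the WT arrays with that of prKO.

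Set directly against the other lines at 2 weeks, the prKO testis had more of the same 4 tested genes. Against srKO, 4 of 8 genes were called higher (11.8% of all genes were called, 6.9% higher), with Gpx3 at 2.53 ± 0.30 (adjusted p = 2.2e-05), Nqo1 at 1.04 ± 0.18 (0.00079), Hmox1 at 0.62 ± 0.13 (0.0030) and Srxn1 at 0.35 ± 0.08 (0.0097). Against the testes labelled lrKO, these 4 were also called higher, by 2.32 for Gpx3, 0.80 for Nqo1, 0.65 for Hmox1 and 0.38 for Srxn1, and Gclm was called lower (-0.20 ± 0.06, adjusted p = 0.031), where 16.4% of all genes were called, 10.4% higher and 6.0% lower. Gclm stood at 9.36 to 9.50 in prKO testes and 9.54 to 9.71 in testes labelled lrKO; its call was lost without 1 of 5 single arrays. Both comparisons use the same prKO arrays. Slc7a11 was higher by 3.01 against srKO and by 3.18 against testes labelled lrKO, with no test.

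**Figure D2:**
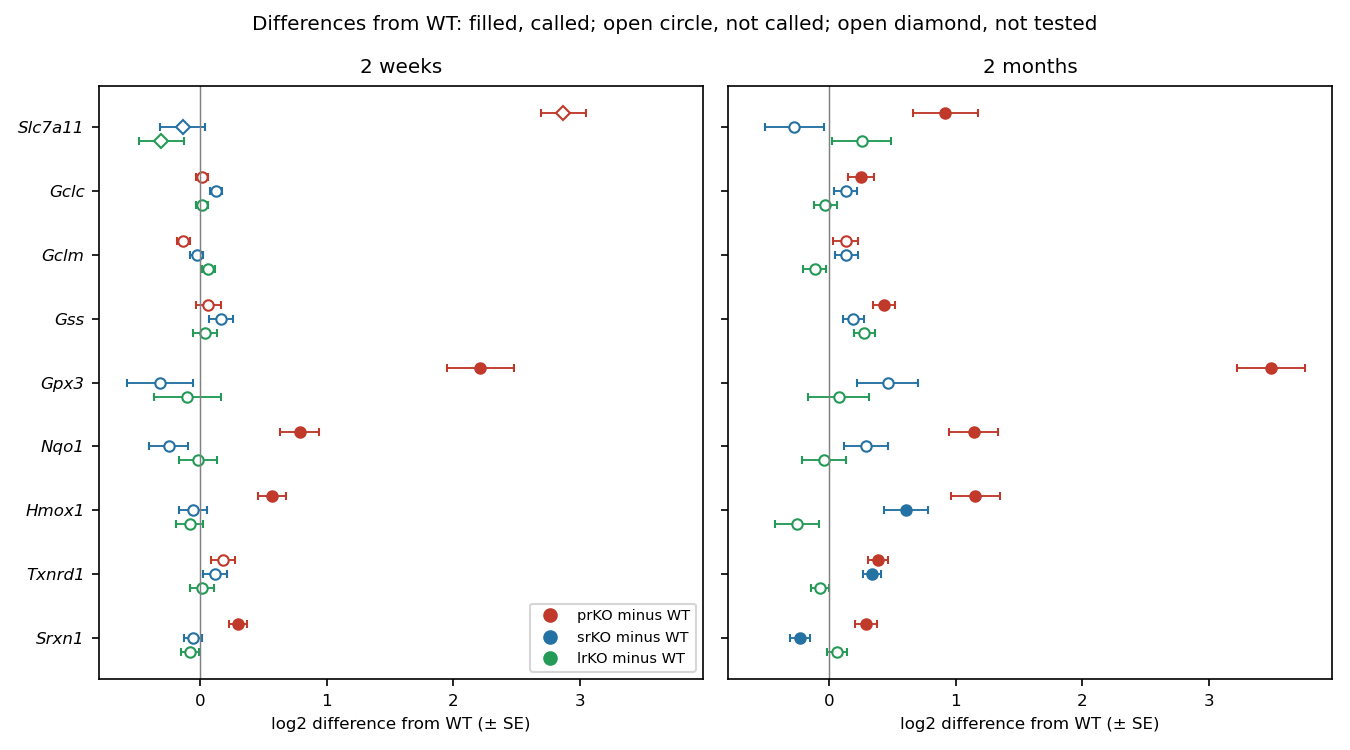
Log2 difference from WT with its SE (horizontal axes) for each of the 9 genes (vertical axis) in testes labelled prKO, srKO and lrKO at 2 weeks and 2 months. Filled circles passed an adjusted p under 0.05, open circles did not, and open diamonds were not tested; Gpx3 in prKO had the largest difference at 2 months.

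At 2 months the prKO testis had more of nearly the whole list. Of the 9 genes, 8 were called higher and 0 lower, in a comparison in which 48.4% of all genes were called and 26.0% were called higher; the median log2 difference of the 9 genes was 0.43, against 0.02 over all genes. Gpx3 stood at 10.28, 9.54 and 10.29 in prKO testes, against 6.15 to 7.06 (median 6.54) in WT testes. The groups were at least 2.48 apart, and the level was 11.2-fold higher (3.49 ± 0.27, limma adjusted p = 1.1e-08). Replicates 2 and 3, at 9.54 and 10.29, had Adam7 at 4.25 and 4.47, near the 4.28 to 4.50 of the 6 WT testes not high in epididymal markers.

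Nqo1 stood at 7.12, 6.35 and 5.93 in prKO testes, against 4.99 to 5.67 (median 5.30) in WT testes, and Hmox1 at 6.47, 7.66 and 7.33, against 5.68 to 6.25 (median 5.97). Neither overlapped WT, but both spread widely among the prKO testes. Nqo1 was 2.21-fold higher (1.14 ± 0.19, adjusted p = 6.8e-05) and Hmox1 2.23-fold higher (1.16 ± 0.19, adjusted p = 5.8e-05). Txnrd1 stood at 8.79, 8.86 and 8.67 in prKO testes, against 8.21 to 8.51 in WT testes (0.39 ± 0.08, adjusted p = 0.00045). Srxn1 stood at 7.45, 7.25 and 7.18 in prKO testes, against 6.76 to 7.17 in WT testes, with a gap of 0.01 between the groups (0.29 ± 0.09, adjusted p = 0.010). The call of Srxn1 was lost without prKO replicate 1 (0.21, adjusted p = 0.088). Gss stood at 6.93, 6.96 and 6.65 in prKO testes, against 6.29 to 6.57 in WT testes (0.43 ± 0.09, adjusted p = 0.00052). Of the 9 genes, 6 did not overlap between prKO and WT, against 32.1% of all genes.

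Slc7a11 stood at 8.25, 8.18 and 6.86 in prKO testes at 2 months, against 6.45 to 7.39 (median 6.80) in WT testes. Replicates 1 and 2 of prKO lay above every WT value, and replicate 3 lay among the WT values. The level was 1.89-fold higher (0.92 ± 0.26, adjusted p = 0.0060), a call that was lost without prKO replicate 1 (0.67, adjusted p = 0.059) or replicate 2 (0.71, adjusted p = 0.055). Gclc stood at 8.80, 8.85 and 8.58 in prKO testes, against 8.34 to 8.72 in WT testes; its call (0.25 ± 0.10, adjusted p = 0.046) was near the threshold and was lost under 14 alternatives, among them the loss of prKO replicate 1 or 2 or of any of 5 single WT arrays. Gclm stood at 9.29, 8.83 and 8.59 in prKO testes, against 8.63 to 8.90 in WT testes, and was not called (0.13 ± 0.10, adjusted p = 0.30), but passed without prKO replicate 3 (0.29, adjusted p = 0.023) and turned in direction without replicate 1 (-0.06, adjusted p = 0.55). Replicate 3 was the lowest of the 3 prKO testes in 7 of the 9 genes. Without replicate 1, 5 of the genes were called, and without the arrays high in epididymal markers also 5.

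Cell type markers also differed between prKO and WT testes at 2 months. All 5 fibroblast and stroma markers, 6 of 6 endothelial and 8 of 9 macrophage markers were higher in prKO. Of 7 spermatid markers, 6 were lower and 1 was higher. Of all genes, 26.0% were called higher and 22.4% lower. The mean log2 level of the stroma list lay at 9.40 to 10.53 in prKO testes and 7.70 to 7.95 in WT testes, while that of the spermatid list was at most 10.76 in prKO testes and at least 11.14 in WT testes. The Leydig and steroid synthesis list, with 4 of 7 genes higher and 1 lower, lay at 9.63 to 10.27 in prKO testes and 9.06 to 9.59 in WT testes. At 2 weeks that list had 5 of 7 genes higher (10.03 to 10.44 in prKO testes and 8.21 to 9.18 in WT testes). Macrophages had 4 of 9 higher, endothelium 3 of 6 and stroma 4 of 5. Sertoli markers had 2 of 11 higher and 2 lower, and no spermatid marker was called. Of all genes at that age, 7.9% were called higher and 2.59% lower. The adrenal cortex list, whose marker Mc2r was below the filter, had 2 of 4 tested genes higher at 2 weeks (6.70 to 7.50 in prKO testes and 5.18 to 5.48 in WT testes) and 3 of 4 higher at 2 months (6.72 to 8.01 in prKO testes and 5.26 to 5.64 in WT testes). At 2 months 4 of 5 adipose markers were also higher (5.29 to 8.12 in prKO testes and 4.92 to 5.43 in WT testes), as were 4 of 5 myoid markers. Of 11 Sertoli markers, 7 were higher and 2 lower, and of 7 spermatogonial markers, 3 were higher and 2 lower. Of 5 markers of meiotic spermatocytes, 4 were lower. The part of these cell types in the results was not tested.

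In testes labelled srKO at 2 months, Hmox1 and Txnrd1 were higher and Srxn1 lower, in a comparison in which 25.4% of all genes were called, 14.7% higher and 10.8% lower. Hmox1 stood at 6.29, 7.09, 6.46 and 6.59 in testes labelled srKO, against 5.68 to 6.25 in WT testes, and all 4 lay above every WT value (0.61 ± 0.17, adjusted p = 0.014). Txnrd1 stood at 8.76, 8.87, 8.69 and 8.59 in testes labelled srKO, against 8.21 to 8.51 in WT testes, also without overlap (0.34 ± 0.07, adjusted p = 0.0013). Srxn1 stood at 6.84, 6.83, 6.87 and 6.57 in testes labelled srKO, against 6.76 to 7.17 in WT testes (-0.23 ± 0.08, adjusted p = 0.040), and only replicate 4 lay below every WT value. The call of Srxn1 was lost without any of 8 single arrays, such as srKO replicate 4 (-0.16, adjusted p = 0.18), and that of Hmox1 without srKO replicate 2 (0.45, adjusted p = 0.089). With WT replicates 5 to 8 set aside, Hmox1 was higher by 0.51 (adjusted p = 0.10). Slc7a11 stood at 6.43, 7.22, 6.15 and 6.47 in testes labelled srKO, 2 of them below every WT value, and was not called (-0.28 ± 0.23, adjusted p = 0.44). Gpx3 stood at 7.29, 7.51, 6.80 and 6.44, with 2 above every WT value (0.46 ± 0.24, adjusted p = 0.18). The array at 7.29 was also high in Adam7 (5.56). Macrophage markers were higher for 6 of 9 genes and spermatid markers lower for 6 of 7 in these testes. Their mean log2 levels were 7.68 to 8.18 and 9.39 to 10.46, against 6.93 to 7.26 and 11.14 to 11.36 in WT testes. Endothelial markers were higher for 4 of 6 genes, stroma for 3 of 5, myoid for 2 of 5 and adrenal cortex for 1 of 4. Leydig markers had 4 of 7 higher and 1 lower, and Sertoli markers 3 of 11 higher and 2 lower. Of 5 meiotic markers 1 was higher. The part of these cell types was not tested.

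In testes labelled lrKO at 2 months, 0 of 9 genes were called, where 0.184% of all genes were. Gss came closest, at 6.69, 6.74, 6.79 and 6.54, against 6.29 to 6.57 in WT testes (0.28 ± 0.08, adjusted p = 0.29). Gpx3 was at 6.23, 6.42, 6.24 and 7.59, where the last array was also high in Adam7 (6.40). Slc7a11 stood at 7.18, 7.11, 7.23 and 6.88, inside the WT range. Hmox1 stood at 5.56 to 5.93, against 5.68 to 6.25 in WT testes, and Srxn1 at 7.02 to 7.10, against 6.76 to 7.17 in WT testes.

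The prKO testis was also set against the other lines at 2 months. Against testes labelled srKO, 4 of 9 genes were higher (25.6% of all genes were called, 13.4% higher): Gpx3 by 3.03 ± 0.30 (adjusted p = 4.4e-06), Slc7a11 by 1.19 ± 0.29 (adjusted p = 0.0060), Nqo1 by 0.85 ± 0.22 (adjusted p = 0.0081) and Srxn1 by 0.52 ± 0.10 (adjusted p = 0.0012). Txnrd1, called higher than WT in both lines, differed by 0.05 ± 0.09 (adjusted p = 0.74). Against the testes labelled lrKO, 5 of 9 genes were higher (45.6% of all genes were called, 25.4% higher), with Gpx3 at 3.42, Hmox1 at 1.41, Nqo1 at 1.18, Txnrd1 at 0.46 and Gclc at 0.28. Gclc was at the threshold (adjusted p = 0.0499) and lost its call without any 1 of 5 single arrays, and Slc7a11 at 0.66 ± 0.29 missed it (adjusted p = 0.071) but passed without prKO replicate 3 (1.11, adjusted p = 0.0019), against 0.42 (adjusted p = 0.30) without replicate 1. In a fit of only prKO and labelled srKO arrays, Slc7a11 (adjusted p = 0.088) and Nqo1 (adjusted p = 0.098) missed the threshold. Hmox1 was not called against testes labelled srKO (0.55 ± 0.22, adjusted p = 0.069) but passed without prKO replicate 1 (0.89, adjusted p = 0.0020), against 0.30 (adjusted p = 0.35) without replicate 2.

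**Figure D3:**
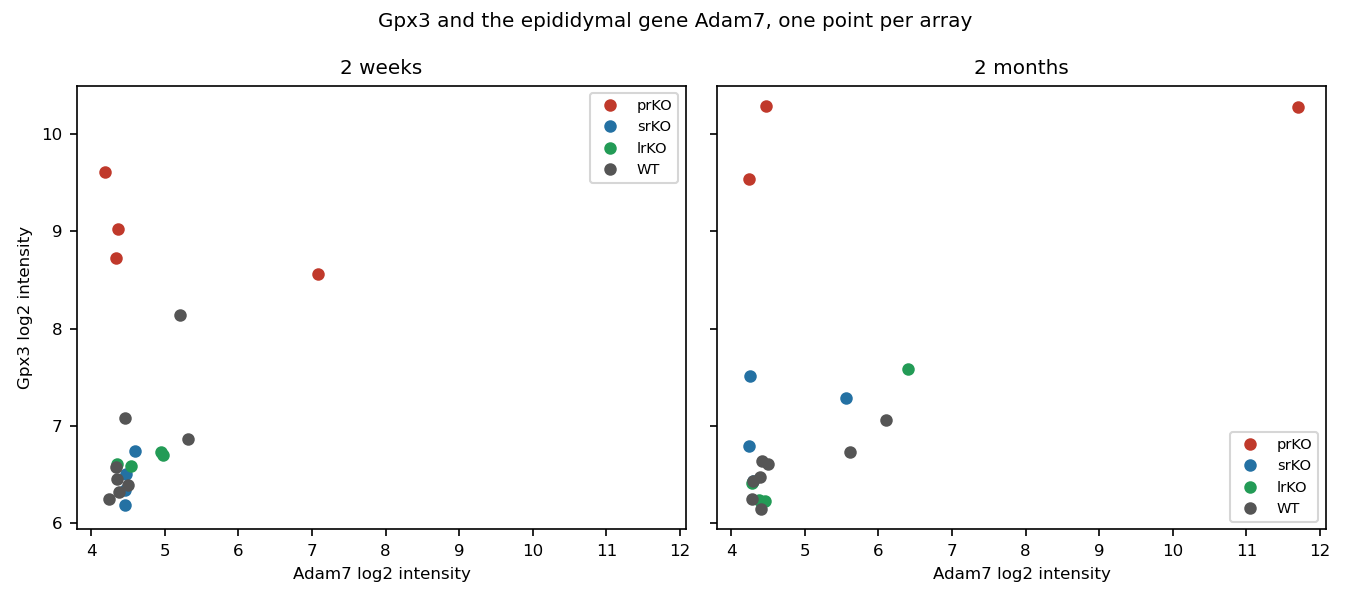
Log2 intensity of Gpx3 (vertical axis) against the epididymal gene Adam7 (horizontal axis), 1 point per array, at 2 weeks and 2 months. Of the 3 prKO testes at 2 months, 1 was high in Adam7 (11.70), and the other 2 (4.25 and 4.47) had Gpx3 at 9.54 and 10.29.

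In WT testes, 6 of the 8 genes tested differed between 2 weeks and 2 months, 1 higher and 5 lower at 2 months. Of all genes, 81.6% were called, 26.7% higher and 55.0% lower. Shares so near those of all genes say nothing of the list. Age and any processing by age cannot be told apart in this comparison. Srxn1 was higher at 2 months by 0.49 ± 0.06, with no overlap between ages. Gclm (-0.79 ± 0.06), Gclc (-0.68 ± 0.06), Gss (-0.58 ± 0.07) and Hmox1 (-1.17 ± 0.12) were lower at 2 months in all 8 testes than in any at 2 weeks, and Txnrd1 was lower by a little (-0.19 ± 0.07, adjusted p = 0.011). The median over all genes was -0.24, so that the fall of Txnrd1 was smaller than that median, and it was lost after centring of each array (-0.08, adjusted p = 0.31). Gpx3 (-0.22) and Nqo1 (-0.16) were not called, with adjusted p of 0.35 and 0.28. Slc7a11, with no test, was 3.16-fold higher at 2 months (a log2 difference of 1.66), at 6.45 to 7.39 against 4.79 to 5.56 at 2 weeks. The values at 2 weeks lay near the 4.62 of the filter, so this fold is approximate.

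The order of groups differed from gene to gene. For Slc7a11 the prKO means at 2 weeks (8.06) and at 2 months (7.76) were followed by testes labelled lrKO, WT testes and testes labelled srKO at 2 months (7.10, 6.84 and 6.57), and after a gap by WT, srKO and labelled lrKO testes at 2 weeks (5.18, 5.05 and 4.88). That gap was the only place in this order where neighbouring groups did not overlap. The groups below it lay near the 4.62 of the filter, so nothing is read from their order. For Gpx3 the prKO means at 2 months (10.04) and at 2 weeks (8.98) stood apart from the other 6 groups, whose neighbours all overlapped. The means of Nqo1 broke at the same place, with prKO at 6.47 (2 months) and 6.28 (2 weeks) and the other groups at 5.62 or lower. Single arrays did overlap across that break. The lowest prKO value at 2 months (5.93) lay below the highest in testes labelled srKO at 2 months (5.98) and in WT testes at 2 weeks (5.97). For Hmox1, prKO at 2 weeks (7.73) stood alone at the top, followed by 5 groups from 7.17 to 6.61, and WT and labelled lrKO testes at 2 months (6.00 and 5.74) stood apart at the bottom. Srxn1 was highest in prKO at 2 months (7.29), which did not overlap its neighbour, testes labelled lrKO at 2 months (7.07). In Gclc and Gclm all group means at 2 months lay below all at 2 weeks. Group means of Gclc were 8.46 to 8.74 at 2 months and 9.17 to 9.30 at 2 weeks, and those of Gclm 8.66 to 8.91 at 2 months and 9.43 to 9.63 at 2 weeks. In Gss and Txnrd1 every neighbouring pair of groups overlapped.

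The excess over WT was compared between ages in 1 model. In prKO it was larger at 2 months than at 2 weeks for Gpx3 (by 1.28 ± 0.39, adjusted p = 0.013), Hmox1 (by 0.59 ± 0.22, adjusted p = 0.046) and Gss (by 0.37 ± 0.13, adjusted p = 0.034), 3 of 8 genes tested where 28.2% of all genes were called and 15.8% were called higher. In testes labelled srKO the change of Hmox1 was larger at 2 months by 0.66 ± 0.21 (adjusted p = 0.027), 1 of 8 genes tested where 17.2% of all genes were called and 8.49% were called higher. In testes labelled lrKO 0 of 8 were, where 0.1% of all genes were called. The call of Gpx3 in prKO was lost without prKO replicate 3 at 2 months (1.15, adjusted p = 0.052). It was also lost against WT replicates 5 to 8 alone (0.93, adjusted p = 0.070). That of Gss was lost under 12 of 35 alternatives, 5 of them the loss of a single array. That of Hmox1 was lost under 20 of 35, 15 of them the loss of a single array (0.33, adjusted p = 0.30, without prKO replicate 2 at 2 months). The call of Hmox1 in testes labelled srKO was lost without srKO replicate 2 or 4 at 2 weeks or replicate 2 at 2 months. The excess of Slc7a11 in prKO was smaller at 2 months by 1.95, with no test.

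The wider pathway was read in 10 lists of related genes that hold none of the 9. The lists share some genes (Slc3a2, Cth, Chac1, Cat and Gpx4), whose calls count in more than 1 list. In prKO testes at 2 weeks, where 7.9% of all genes were called higher and 2.59% lower, 2 of 7 genes of cystine and cysteine transport were higher, among them Slc3a2, the partner of Slc7a11 (0.37 ± 0.07, adjusted p = 0.0023), and Slc1a5, a neutral amino acid carrier (0.37 ± 0.11, adjusted p = 0.030). In glutathione turnover and cysteine supply 5 of 14 were higher, with Cth, which makes cysteine from cystathionine, at 0.72 ± 0.21 (adjusted p = 0.030). Glutathione peroxidases had 3 of 5 higher, including Gpx1 (0.55 ± 0.11, adjusted p = 0.0024), and glutathione S-transferases 5 of 20, led by Gstk1 (1.24 ± 0.18) and Gsta3 (0.95 ± 0.11). Of other NRF2 target genes 9 of 18 were higher, led by Ephx1, an epoxide hydrolase (1.16 ± 0.13). Of NRF2 and its partners 0 of 10 were higher and 1 was lower, Cul3, part of the ligase that degrades NRF2 (-0.19 ± 0.06, adjusted p = 0.046). ATF4 and its target genes had 6 of 21 higher, superoxide dismutases and catalase 3 of 5, ferroptosis and lipid peroxide handling 3 of 11, and the thioredoxin, peroxiredoxin and glutaredoxin list 2 of 15.

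At 2 months, where 26.0% of all genes were called higher in prKO testes and 22.4% lower, cystine and cysteine transport had 5 of 7 higher, including Slc3a2 (0.66 ± 0.09, adjusted p = 7.6e-06). Other NRF2 target genes had 15 of 18 higher and 1 lower, and NRF2 and its partners 5 of 10 higher and 2 lower, with Nfe2l2, which encodes NRF2, at 1.23 ± 0.12 (adjusted p = 1.4e-07). The exception among the targets was Osgin1, at -1.42 ± 0.17. The thioredoxin, peroxiredoxin and glutaredoxin list split evenly, with 7 of 15 higher, such as Txn1 (1.52 ± 0.13), and 7 lower, such as the sperm thioredoxins Txndc2 (-1.41 ± 0.18) and Txndc8 (-1.28 ± 0.18). Of the 5 glutathione peroxidases 2 were higher, Gpx1 (1.57 ± 0.17) and Gpx8 (1.61 ± 0.13), and 2 lower, Gpx4 (-0.52 ± 0.08) and Gpx6 (-0.51 ± 0.18). Glutathione S-transferases had 12 of 20 higher and 4 lower, glutathione turnover and cysteine supply 6 of 14 higher and 2 lower, ATF4 and its target genes 15 of 21 higher and 1 lower, superoxide dismutases and catalase 3 of 5 higher, and ferroptosis and lipid peroxide handling 4 of 11 higher and 1 lower. In WT testes at 2 months against 2 weeks, Gpx4, Gpx6, Txndc2 and Txndc8 were higher by 2.04, 2.31, 6.27 and 3.86. In testes labelled srKO at 2 months, where 14.7% of all genes were called higher and 10.8% lower, 11 of 18 other NRF2 target genes were higher and 1 lower, and 1 of 7 transport genes was higher (Slc3a2, 0.46 ± 0.08) and 1 lower. Glutathione S-transferases had 8 of 20 higher and 2 lower, the thioredoxin list 5 of 15 higher and 5 lower, NRF2 and its partners 4 of 10 higher and 1 lower, and ATF4 and its target genes 4 of 21 higher and 1 lower. Ferroptosis had 4 of 11 higher and 1 lower, superoxide dismutases and catalase 3 of 5 higher, glutathione peroxidases 2 of 5 higher and 2 lower, and glutathione turnover 1 of 14 higher and 2 lower. In testes labelled lrKO 0 genes of these 10 lists were called at either age.

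**Figure D4:**
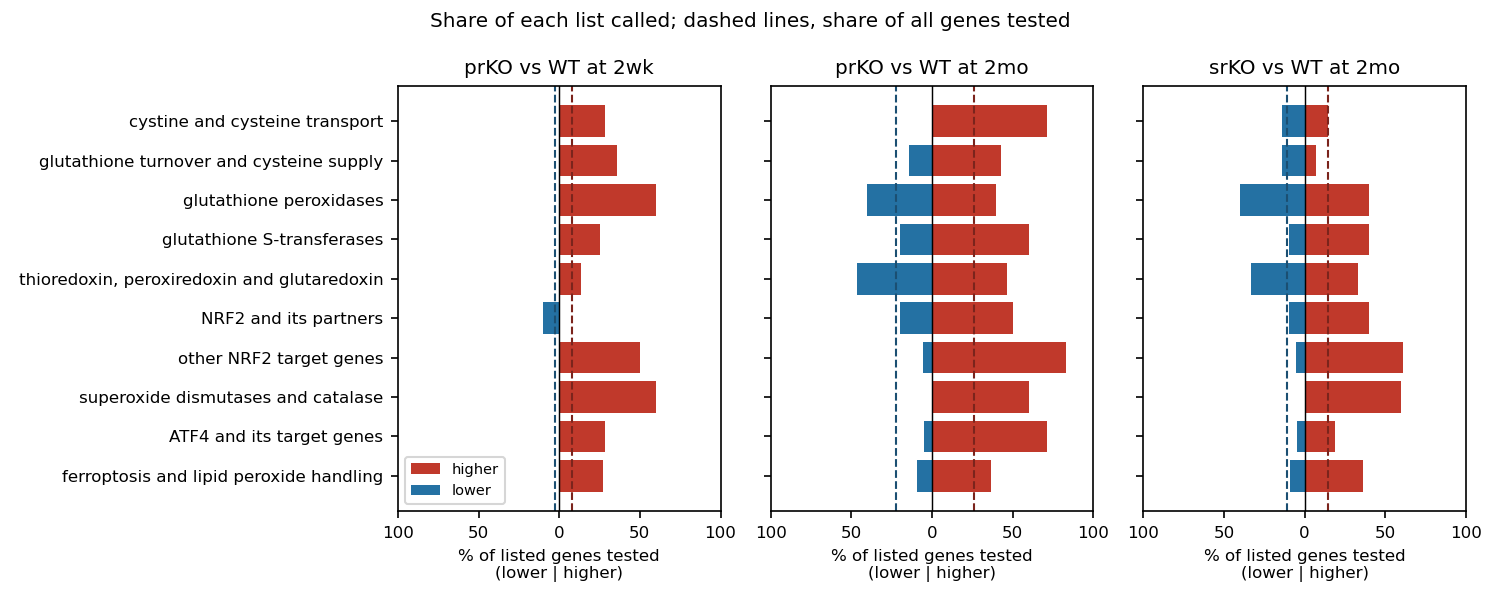
Share of the tested genes of each of 10 lists (vertical axis) called higher (right of 0) or lower (left of 0), in percent (horizontal axes), in prKO testes at both ages and in testes labelled srKO at 2 months. Dashed lines give the share of all genes called in that direction; at 2 months 15 of 18 other NRF2 target genes were higher in prKO.

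Genes whose 8 group means were most like those of Slc7a11 were found by Pearson correlation across the groups. Names of the Gm, LOC, Rik, Mir, Snor, Olfr and Vmn kinds were passed over. They were Dmrtc1b (r = 0.977), Dlg2, Wipi1, Ms4a6c, Lpar1 and Fkbp7 (r = 0.945). For Gpx3 they were Cd163, a macrophage scavenger receptor (r = 0.991), Ppp1r3b, Il33, Fxyd5, Ecm1 and the listed gene Nqo1 (r = 0.983). The 8 means share arrays and ages, and r is a description. It does not measure size: the means of Dlg2 ran from 6.00 to 6.26, those of Slc7a11 from 4.88 to 8.06.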

How the data were processed

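RNA of whole testis from 39 mice was measured on Affymetrix arrays. The deposited values were log2 intensities that the authors made with RMA, per the submitters' processing notes; the version of RMA and the array's genome build are not given in these notes. Arrays give no depth, so their number limits the precision. The labels call the arrays biological replicates.

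Of 41345 probe sets, 23521 had 1 symbol, 1814 several and 16010 none listed. Of several probe sets for 1 gene, the one brightest on average over the arrays was taken. A total of 19007 genes with a group mean above the 25th percentile (4.62) were tested with limma 3.58.1 (lmFit, eBayes; R 4.3.3): 1 model of 4 genotypes per age, and 1 of 8 groups between ages. Tests were two-sided, adjusted by Benjamini-Hochberg over all genes tested, with a threshold of 0.05. Values after ± are SE of the log2 difference.

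The script was tested on simulated data. Genes of the pathway and marker lists were named by size of change, up to 4 per list among those past the threshold, and examples were taken from these. The genes, lists and tests were chosen with earlier results of these data known. Alternatives were another filter, averaged probe sets, quantile normalization, centring, array weights, trend and robust eBayes, other sets of groups, a replicate block, WT replicates 1 to 4 or 5 to 8 alone, no arrays high in epididymal markers, and each array left out.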

Additional observations from a re-analysis of the deposited data

Results flagged for a closer look

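Of 63 groups of 4 or more arrays, 7 had 1 array far from the rest, by a rule that chance meets in about 1 of 20. In testes labelled lrKO at 2 weeks, Slc7a11 was 5.49 in replicate 2 (nearest 4.72) and Gclc 9.28 in replicate 1 (nearest 9.16). In testes labelled lrKO at 2 months, Gpx3 was 7.59 in replicate 4 (nearest 6.42) and Txnrd1 8.18 in replicate 2 (nearest 8.35). Srxn1 was 6.91 in prKO replicate 1 at 2 weeks (nearest 6.78) and 6.57 in the array labelled srKO replicate 4 at 2 months (nearest 6.83). Gpx3 was 8.14 in WT replicate 4 at 2 weeks (nearest 7.09).

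The change from WT differed between ages, by limma's test of the difference, in prKO for Gss (0.37), Gpx3 (1.28) and Hmox1 (0.59) and in testes labelled srKO for Hmox1 (0.66). The second Slc7a11 probe set, not used above, was dim on all arrays, below the 4.62 of the filter. Its lowest value in prKO testes at 2 weeks was 3.43, just above its highest in WT testes (3.41). The gene was picked on these same arrays, so the values are a description.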

How the results depend on the processing

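No result changed its direction while called under the alternatives run; of 3285 values of single genes, 108 lost a call, 27 gained one and 18 untested ones moved. Of 365 counts of called genes, 341 stayed within 1.5 times. For prKO against WT at 2 weeks the count of 4 became 2 against WT replicates 1 to 4 alone. For prKO against WT at 2 months the count of 8 became 5 with array weights and 5 without the arrays high in epididymal markers, and 5 to 9 when single arrays were left out (5 without prKO replicate 1). For testes labelled srKO at 2 months the count of 3 was 1 to 3 with single arrays left out (1 without srKO replicate 2). For testes labelled lrKO at 2 months array weights gave 1 (Gss, 0.30, adjusted p = 0.035). For prKO against srKO at 2 months the count of 4 became 2 in a fit of only these groups, and 4 to 6 with single arrays left out. For prKO against lrKO at 2 months the count of 5 became 8 with all 8 groups in the fit, and 4 to 8 with single arrays left out (8 without prKO replicate 3). For the change of prKO between ages the count of 3 became 1 with centring and 1 in a fit of only these groups. Against WT replicates 5 to 8 alone it became 1, a gene not called before (Gclc, 0.35, adjusted p = 0.025). With single arrays left out it was 1 to 4 (1 without WT replicate 3 at 2 weeks, prKO replicate 1 or 2 at 2 weeks, or prKO replicate 2 at 2 months). For the change of srKO the count of 1 became 2 with array weights, 2 against WT replicates 1 to 4 alone and 0 against WT replicates 5 to 8 alone, and 0 to 1 with single arrays left out (0 without srKO replicate 2 or 4 at 2 weeks or replicate 2 at 2 months). With the replicate block, 1 of the 4 genes called in prKO at 2 weeks passed and 2 were called in the change of srKO. The numbers did not pair the samples: 7 of 45 same-numbered pairs correlated above 0.1 (r from -0.56 to 0.44). Averaging both Slc7a11 probe sets gave 1.56 in prKO at 2 weeks and 0.87 in WT at 2 months against 2 weeks. With the brighter probe set alone, that WT difference was 1.34 from replicates 1 to 4 and 1.97 from replicates 5 to 8. The cause was not tested.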
